A study of Mus musculus with 12 samples.

Results

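The genes described here encode 8 proteins of neurotransmitter release: Vamp1, Vamp2, Snap25, Stx1a, Syt1, Syn1, Cplx1 and Cplx2. They were taken by gene symbol from the RNA-seq table (8 of 18208 genes) and by Ensembl gene identifier from the table of CLIP counts, where they hold 549 of 147438 distinct positions. In the 2 deposited lists of CLIP peaks they hold 22 of the 9537 saline peaks and 37 of the 9903 methamphetamine peaks. The set was chosen by the CLIP counts of Vamp2, in which a position in a Vamp2 3′ UTR was lower after methamphetamine, and was filled with textbook partners of Vamp2. The CLIP difference at Vamp2 between the treatments is therefore described and carries no test.

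CLIP-seq sequences the RNA fragments that stay cross-linked to a precipitated protein, here hnRNP H, a nuclear RNA-binding protein that recognises runs of G and takes part in splicing and 3′ end processing. All samples were wild-type mice on the C57BL/6J background, aged postnatal day 50 to 100, whose sires were heterozygous Hnrnph1 mutants. Every mouse received saline on days 1 and 2. On day 3 the saline group received saline again and the methamphetamine group received the psychostimulant methamphetamine at 2 mg/kg by intraperitoneal injection, and whole striata were taken 30 min later. Each replicate was a pool of striata from 4 mice, 2 females and 2 males, so n = 3 pools per treatment throughout. Part of each pool went to RNA-seq before cross-linking, and the rest to CLIP with the membrane slice from 50 to 75 kDa.

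A synaptic vesicle fuses with the presynaptic membrane when the vesicle SNARE synaptobrevin (Vamp2, or its relative Vamp1) zippers with the target membrane SNAREs SNAP-25 (Snap25) and syntaxin 1A (Stx1a). Synaptotagmin 1 (Syt1) senses calcium and triggers fusion, complexins (Cplx1, Cplx2) clamp and support the assembled SNARE complex, and synapsin 1 (Syn1) holds vesicles in the reserve pool. In the striatum these proteins work in the terminals of local GABAergic neurons, while dopaminergic and cortical terminals found there receive theirs from cell bodies that lie elsewhere.

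The RNA-seq libraries held 3935160 to 5091839 reads, recovered as whole reads from the deposited values, and the CLIP libraries held 423057 (saline replicate 2) to 1635338 (saline replicate 3) reads in peaks. On the first principal component of the RNA-seq libraries, which took 65.6% of the variance, saline replicates 1 and 3 and methamphetamine replicate 2 (set A) stood apart from saline replicate 2 and methamphetamine replicates 1 and 3 (set B). The 10 markers of striatal projection neurons were detected in every library, and their summed level was 7662 to 8907 CPM in set A and 5584 to 6412 CPM in set B. The 10 cortical markers summed to 203 to 452 CPM in set A and 493 to 885 CPM in set B. The cortical sums overlapped between the treatments (saline 203 to 612, methamphetamine 452 to 885), with methamphetamine replicate 3 highest and saline replicate 3 lowest. Their methamphetamine minus saline difference was 149 CPM within set A and 76.4 CPM within set B, with 8 markers above 0 and 2 below. The striatal projection sums also overlapped (saline 6412 to 8907, methamphetamine 5584 to 7662). Their difference was -822 CPM within set A and -724 CPM within set B, with all 10 markers below 0. In both lists 0 markers passed limma at an adjusted p of 0.05. The 8 interneuron markers summed to 1034 to 1129 CPM in set A and 1275 to 1892 CPM in set B, highest in methamphetamine replicate 1. The 5 astrocyte markers summed to 464 to 576 CPM in set A and 647 to 770 CPM in set B. For the 5 microglia markers these sums were 206 to 226 CPM and 243 to 281 CPM. The sums of the 6 oligodendrocyte markers overlapped between the sets (4531 to 10992 CPM in set A, 6209 to 11297 CPM in set B). A choroid plexus list summed to 4924 CPM in methamphetamine replicate 2 and to 62.7 to 225 CPM in the other libraries. The part of these differences in the results that follow was not tested unless a value is given, and in bulk tissue fewer cells of a type and less RNA per cell cannot be told apart.

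Selected 3′ UTR positions are shown by the 30 bases around their longest run of G, with that run in capitals. The bases were read from GENCODE M21 transcripts on GRCm38 in transcript direction. The positions of Syt1, Stx1a and Syn1 with the most reads had no sequence here. The first belongs to the Vamp2 position that was lower after methamphetamine (11:69090191-69090290, plus strand). The next 2 lie in the long Vamp2 3′ UTR, where most other Vamp2 reads lay. The others show listed 3′ UTR peaks of Cplx2, the member with the most listed peaks, and the leading 3′ UTR positions of Snap25 and Cplx1. The last Cplx2 window lies in 13:54382050-54382149, a listed peak without counts. The Cplx2 positions described below by their reads or changes are not among those shown.
Vamp2-202 3′ UTR, chr11:69090244-69090273: aggaataccgggtGGGGtcctggtgttcgt
Vamp2-201 3′ UTR, chr11:69091133-69091162: tctttgtatcccttGGGaggctctgagact
Vamp2-201 3′ UTR, chr11:69091561-69091590: atgatggaccaataattctgccactcGGGG
Cplx2 3′ UTR, chr13:54379950-54379979: aGGaggaggaggaggaggaggaggaggagg
Cplx2 3′ UTR, chr13:54380205-54380234: ctttactctagcaGGGGGcattgaacccag
Cplx2 3′ UTR, chr13:54382073-54382102: gtgtcatcccacaGGGGGctagtgtttgtg
Snap25 3′ UTR, chr2:136781274-136781303: acacacacacacacaGagtcagtcaccccc
Cplx1 3′ UTR, minus strand, chr5:108519904-108519933: accccaccaggcaaGGGtgtgaccctcagg
In its 100 nt the first Vamp2 position holds 4 separate runs of GGG or longer and 31% G. The 6 positions of the Vamp2-201 3′ UTR with counts and sequence hold 0 or 1 such run and 9% to 22% G. The Snap25 window lies in a CA repeat, and the longest run of G in that position is 1 base. The first Cplx2 window is a GGA repeat without GGG.

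Vamp2 encodes the main vesicle SNARE of forebrain synapses. The position for which it was chosen lies just behind the stop codon of a short transcript and was low after methamphetamine, while the CLIP level of the long 3′ UTR overlapped between the treatments. The position at 11:69090191-69090290 begins 5 nt past the stop codon of Vamp2-202. This short transcript ends in an extended exon (69089976-69090690) that runs through the last intron of the main transcript Vamp2-201 (69090028-69090649), so the position is 3′ UTR in the one and intron in the other. Saline replicates 1 to 3 had 14, 31 and 37 reads there, and methamphetamine replicates 1 to 3 had 3, 2 and 2. Scaled by TMM over positions, this was 15.8, 111 and 27.2 CPM against 6.17, 2.41 and 5.07 CPM. The groups did not overlap, although saline replicate 2 was far above the other 2 saline libraries. The means were 51.4 ± 52.0 (SD) CPM after saline and 4.55 ± 1.94 CPM after methamphetamine, 11.3-fold lower. The methamphetamine libraries hold only 7 reads there in all, against 82 in the saline libraries. Among the 10358 positions that passed the count filter, 3.62% had groups that did not overlap and were lower after methamphetamine, a contrast that chose this position, so nothing is read from that share. The edgeR log2 change was -3.44, and -2.31 without saline replicate 2. Within set A the mean difference was -19.1 CPM and within set B it was -105 CPM.

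**Figure D1:**
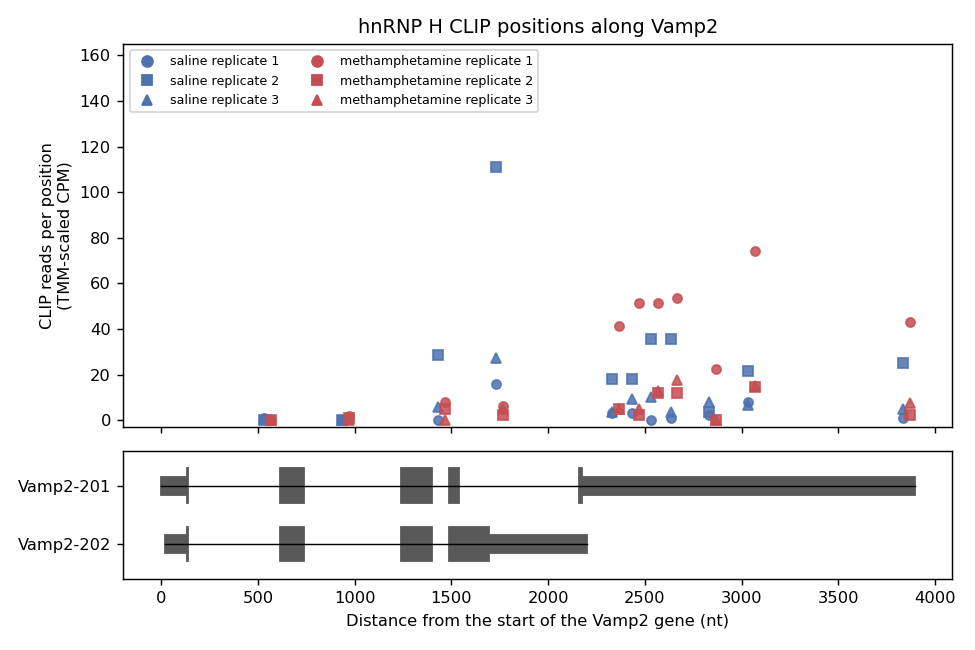
CLIP reads per Vamp2 position in each library (top, TMM-scaled CPM per 100 nt position) against the distance from the start of the gene, above the exons of Vamp2-201 and Vamp2-202 (bottom, tall boxes coding, low boxes untranslated). Blue symbols are saline and red symbols methamphetamine libraries; at the Vamp2-202 3′ UTR position all 3 saline libraries (15.8 to 111 CPM) lie above the 3 methamphetamine libraries (2.41 to 6.17 CPM), while methamphetamine replicate 1 is highest at each of the 7 positions of the Vamp2-201 3′ UTR.

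The 7 positions in the Vamp2-201 3′ UTR (69090664-69092384) added up to 17, 44 and 64 reads in the saline libraries, against 164, 40 and 25 reads in the methamphetamine libraries. Their scaled sums were 19.2, 158 and 47.1 CPM against 337, 48.1 and 63.3 CPM. These groups overlapped. The means of 74.7 ± 73.2 and 150 ± 163 CPM differed by 75.0 CPM, near the saline SD and below the methamphetamine SD. Without methamphetamine replicate 1 the methamphetamine mean was 55.7 CPM.

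Shares within a library do not depend on scaling. The Vamp2-202 position took 43.8%, 37.3% and 33.6% of the Vamp2 reads after saline (Wilson 95% intervals 28.2 to 60.7%, 27.7 to 48.1% and 25.5 to 42.9%). After methamphetamine it took 1.74%, 4.26% and 7.41% (0.595 to 5.0%, 1.17 to 14.2% and 2.06 to 23.4%). The intervals cover counting error only, and they come from the counts that chose the position, so their separation is not read as support. The Vamp2-201 3′ UTR took 53.1%, 53.0% and 58.2% after saline and 95.3%, 85.1% and 92.6% after methamphetamine. The mean share of the first position was 38.2 ± 5.12% after saline and 4.47 ± 2.84% after methamphetamine, and as shares of the same reads the larger share of the long 3′ UTR is the complement of the smaller share of this position. Both are described without a test. The other 3 Vamp2 positions held 28 reads in all.

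**Figure D2:**
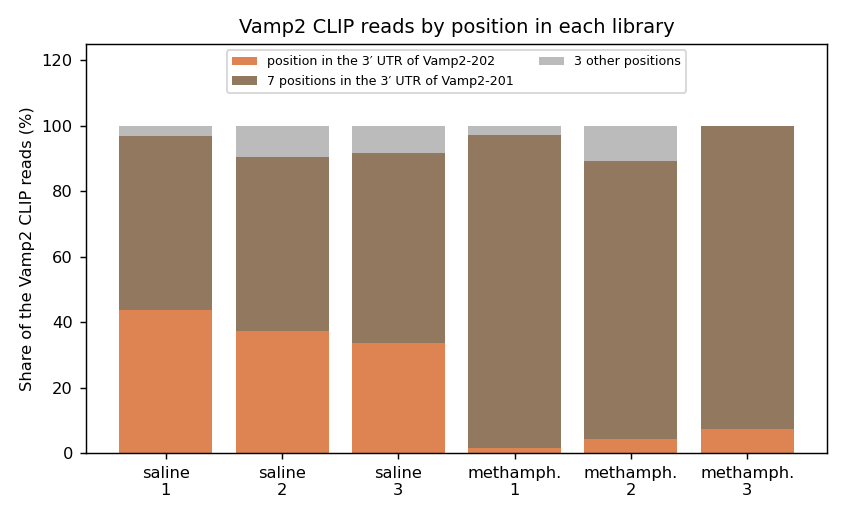
Share of the Vamp2 CLIP reads (%) in each of the 6 CLIP libraries at the Vamp2-202 3′ UTR position, in the 7 positions of the Vamp2-201 3′ UTR and at 3 other positions. The first share is 33.6 to 43.8% in the saline libraries and 1.74 to 7.41% in the methamphetamine libraries, which rest on 27 to 172 Vamp2 reads.

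Summed over all 11 positions, Vamp2 had 32, 83 and 110 reads in the saline libraries, against 172, 47 and 27 in the methamphetamine libraries. With TMM factors of the gene sums this was 31.7, 221 and 65.9 CPM against 202, 47.5 and 47.9 CPM. Saline replicate 2 and methamphetamine replicate 1 were high, the groups overlapped, and the edgeR log2 change was -0.06. That value was 0.94 without saline replicate 2 and -1.11 without methamphetamine replicate 1. The Vamp2-202 position was in neither deposited list, although it held the most reads of any Vamp2 position (89 of 471). The listed Vamp2 peaks were 6 distinct positions, all in the Vamp2-201 3′ UTR, with 2 in the saline list, 5 in the methamphetamine list and 1 (69091091-69091190) in both. In the authors' deposited table of each treatment the shared peak had a q-value of 0.0108 after saline and 2.02e-07 after methamphetamine, and 69090691-69090790, listed after methamphetamine only, had no line in the count table.

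Vamp2 transcripts were at nearly the same level in all 6 RNA-seq libraries. The log2 CPM values were 8.71, 8.73 and 8.50 after saline and 8.56, 8.64 and 8.75 after methamphetamine. The groups overlapped over a range of 0.25, and the log2 difference was 0.01 ± 0.16 (SE; limma adjusted p = 1.00). It was -0.07 without saline replicate 3 and -0.04 without methamphetamine replicate 3. The table gives 1 value per gene, so it does not separate Vamp2-201 from Vamp2-202. Among 7852 genes with a mean log2 CPM above 4, those whose values followed Vamp2 most closely over the 6 libraries were Nptxr (Pearson r = 0.995), Ppp4r2 (0.981), Tubgcp6 (0.977), St6galnac5 (0.976) and Dgkh (0.970), and 15 genes had r above 0.95. Nptxr, the neuronal pentraxin receptor of synapses, spanned 7.68 to 8.60 log2 CPM. These correlations rest on 6 libraries and share their depth and set. Vamp2 itself spanned only 0.25, and how many genes would reach such r by chance was not tested. Among the members, r with Vamp2 was highest for Stx1a (0.762) and Syt1 (0.662) and lowest for Vamp1 (-0.267).

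**Figure D3:**
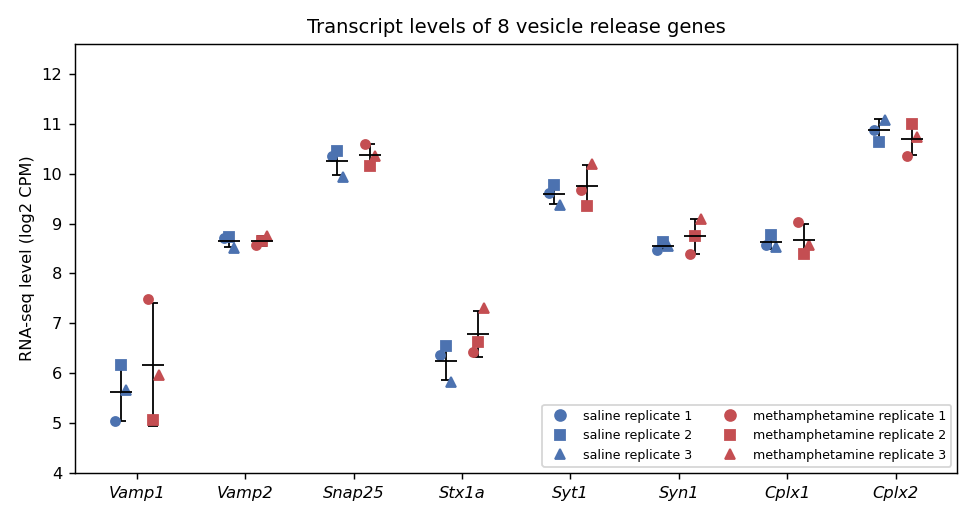
RNA-seq level (log2 CPM) of the 8 genes in each library, with bars for the mean and SD of 3 pools per treatment (blue saline, red methamphetamine). The groups overlap for all 8 genes; Vamp2 is the tightest (8.50 to 8.75) and Vamp1 the widest (5.03 to 7.48).

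Vamp1, the vesicle SNARE best known from brainstem, spinal and neuromuscular synapses, varied most between pools. Its log2 CPM values were 5.03, 6.17 and 5.66 after saline and 7.48, 5.05 and 5.97 after methamphetamine. Methamphetamine replicate 1 was high, the groups overlapped, and the log2 difference was 0.55 ± 0.54 (limma adjusted p = 1.00), or -0.11 without that library. Set A spanned 5.03 to 5.66 and set B 5.97 to 7.48. The library with the highest Vamp1 was also the highest for the interneuron, astrocyte and oligodendrocyte markers. Vamp1 had 31 CLIP reads at 5 positions (12, 0 and 8 in the saline libraries, 5, 5 and 1 in the methamphetamine libraries), below the count filter, with no listed peak.

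Snap25, whose protein gives the SNARE bundle a pair of helices, came next to Cplx2 in mean RNA level per kb of all annotated exons. It measured 10.35, 10.45 and 9.94 log2 CPM after saline and 10.60, 10.16 and 10.36 after methamphetamine. The groups overlapped and the difference was 0.13 ± 0.23 (limma adjusted p = 1.00), or -0.03 without saline replicate 3. Its CLIP reads lay 63.7% in introns and 36.3% in the 3′ UTR. A single 3′ UTR position, 2:136781254-136781353, beginning 110 nt past the stop codon and containing the CA repeat shown above, held 572 of its 2138 reads. That position had 96.1, 348 and 55.9 CPM after saline and 477, 67.4 and 65.9 CPM after methamphetamine, high in saline replicate 2 and methamphetamine replicate 1 as in Vamp2. The edgeR log2 change there was 0.31 (adjusted p = 1.00), and -1.34 without methamphetamine replicate 1. Summed per gene, Snap25 had 414, 574 and 197 CPM after saline and 873, 252 and 319 CPM after methamphetamine. The groups overlapped and the edgeR log2 change was 0.29 (adjusted p = 0.934), but -0.46 without methamphetamine replicate 1 and -0.05 without saline replicate 3. The deposited lists gave Snap25 1 saline peak and 6 methamphetamine peaks, none shared, and neither list held its position with the most reads.

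Stx1a, the syntaxin that anchors the complex in the plasma membrane, had the largest RNA difference relative to its error among the 8 genes. Its log2 CPM values were 6.37, 6.54 and 5.82 after saline and 6.43, 6.63 and 7.31 after methamphetamine. Saline replicate 3 was low and methamphetamine replicate 3 high, and the groups overlapped. The difference of 0.55 ± 0.27 did not pass (limma unadjusted p = 0.0703, adjusted p = 1.00), and it was 0.28 without methamphetamine replicate 3. Within set A it was 0.53 and within set B 0.33. The lowest and highest Stx1a libraries were also the lowest and highest for the cortical and microglia markers, and the highest and lowest for the striatal projection markers. Stx1a had only 130 CLIP reads, 87.7% of them in introns. They came to 13.9, 34.6 and 22.2 CPM after saline and 41.0, 20.2 and 19.5 CPM after methamphetamine, with overlap and an edgeR log2 change of 0.25 (adjusted p = 0.943). That change was -0.18 without methamphetamine replicate 1 and -0.05 without saline replicate 1. Its 1 listed peak, in an intron at 5:135039483-135039582 and in the methamphetamine list, was also its position with the most reads (23).

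Syt1, the calcium sensor, carried the most CLIP reads of the 8 genes, and they were almost wholly intronic. Its RNA level was 9.60, 9.77 and 9.38 log2 CPM after saline and 9.68, 9.36 and 10.20 after methamphetamine. Methamphetamine replicate 3 was highest, the groups overlapped, and the difference was 0.16 ± 0.25 (limma adjusted p = 1.00), or -0.06 without that library. Of 3972 CLIP reads at 254 positions, 97.2% lay in introns, against 70.4% of the reads of all genes. A single intronic position, 10:108567251-108567350, took 1581 reads or 39.8%, yet stood in neither list. It had 349, 222 and 387 CPM after saline and 251, 409 and 562 CPM after methamphetamine, overlapping (edgeR log2 change 0.35, adjusted p = 1.00). The gene sums were 748, 563 and 577 CPM after saline and 1158, 635 and 754 CPM after methamphetamine. Methamphetamine replicate 1 was highest, the groups overlapped, and the edgeR log2 change was 0.43 (adjusted p = 0.883), or 0.14 without that library. Restricted to listed positions, the change was -0.71. The lists held 6 saline and 5 methamphetamine peaks of Syt1, 2 of them shared.

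The complexins differed from each other in where their reads lay more than between treatments. Cplx2 had the highest RNA level of the 8 genes per kb of all annotated exons (8.48 ± 0.26 log2 CPM per kb, SD over 6 libraries). On this scale it lay above Snap25 in every library. The Snap25 length of 6.79 kb includes a long exon of a transcript without coding sequence, so this order depends on annotation. The Cplx2 log2 CPM values were 10.88, 10.64 and 11.08 after saline and 10.36, 11.00 and 10.74 after methamphetamine. Methamphetamine replicate 1 was lowest and the difference of -0.17 ± 0.25 was within the spread (limma adjusted p = 1.00), at 0.00 without that library. It was the one gene of the 8 whose difference was below 0, and its 3 set A libraries (10.88 to 11.08) lay above its set B libraries (10.36 to 10.74).

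Cplx2 also held more listed peaks than any other of the 8 genes: 13 in the saline list and 18 in the methamphetamine list, 9 in both, at 22 of the 47 distinct listed positions of the 8 genes. Its 2311 CLIP reads lay 45.4% in introns, 29.4% in the 3′ UTR, 18.3% in coding exon and 6.79% in the 5′ UTR. The position with the most reads, 13:54378850-54378949 in a coding exon, held 42.9, 43.0 and 137 CPM after saline and 94.7, 136 and 73.5 CPM after methamphetamine, which overlapped (edgeR log2 change 0.43, adjusted p = 1.00). This position was 42% G without any GGG. All 10 Cplx2 positions that passed the count filter had changes above 0, with a median of 0.61, and none passed the test. Over all positions tested, 5539 of 10358 were above 0, with a median of 0.05. The 10 positions belong to 1 gene in the same 6 pools, and the change at the coding exon position ran from 0.09 (without methamphetamine replicate 2) to 1.23 (without saline replicate 3) with each library left out, and was 0.01 without the count filter. The 2 with the largest changes, both in the 3′ UTR, were 54381350-54381449 (1.83) and 54381450-54381549 (1.35), each with edgeR adjusted p = 1.00 and overlapping groups. The gene sums were 312, 377 and 407 CPM after saline and 615, 458 and 346 CPM after methamphetamine. Methamphetamine replicate 1 was highest, methamphetamine replicate 3 lay inside the saline range, and the edgeR log2 change was 0.37 (adjusted p = 0.886), or 0.14 without methamphetamine replicate 1. Within set A the mean difference was 98.7 CPM and within set B 103 CPM.

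Cplx1 was measured at 8.58, 8.77 and 8.52 log2 CPM after saline and 9.03, 8.38 and 8.57 after methamphetamine. The groups overlapped and the difference was 0.04 ± 0.20 (limma adjusted p = 1.00), but -0.15 without methamphetamine replicate 1 and -0.01 without saline replicate 3. Its 253 CLIP reads lay 61.7% in the 3′ UTR and 27.3% in coding exons. They came to 13.9, 71.8 and 40.1 CPM after saline and 107, 42.4 and 21.3 CPM after methamphetamine. These values overlapped widely, and the edgeR log2 change of 0.50 (adjusted p = 0.919) was -0.31 without methamphetamine replicate 1. Its 1 listed peak, 5:108519855-108519954 in the methamphetamine list, lay in the 3′ UTR 174 nt past the stop codon and had the most reads of its positions (43).

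Syn1, the synapsin, measured 8.48, 8.63 and 8.56 log2 CPM after saline and 8.40, 8.74 and 9.10 after methamphetamine. The methamphetamine libraries lay on both sides of the saline range, and the difference was 0.19 ± 0.20 (limma adjusted p = 1.00), at 0.01 without methamphetamine replicate 3. Its 376 CLIP reads were 74.5% intronic and came to 61.4, 69.1 and 45.5 CPM after saline and 124, 73.7 and 58.5 CPM after methamphetamine. The groups overlapped at methamphetamine replicate 3, and the edgeR log2 change was 0.56 (adjusted p = 0.883), or 0.19 without methamphetamine replicate 1. A coding exon position at X:20861512-20861611 held the most reads (44), and the 1 listed peak lay in an intron at X:20911012-20911111.

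**Figure D4:**
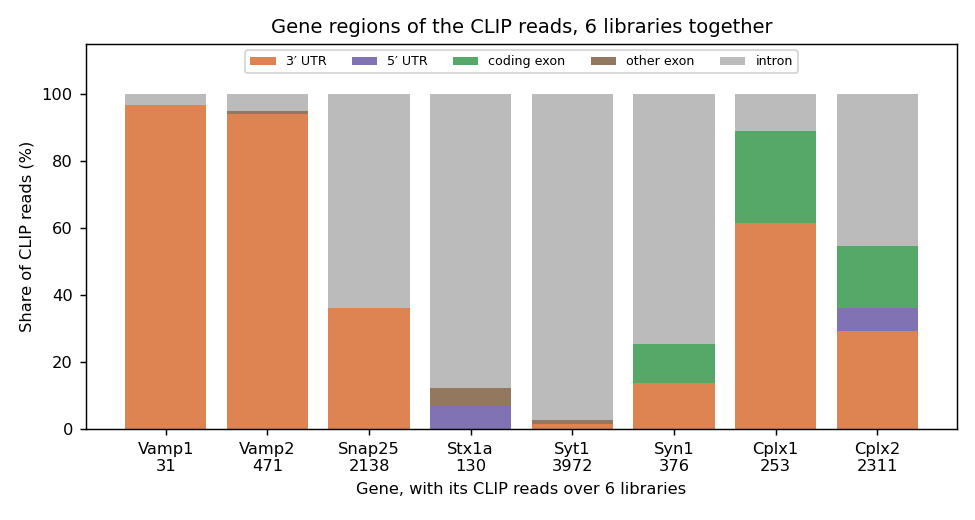
Share of CLIP reads (%) of each gene by gene region, with the 6 libraries added together and the number of reads under each gene. Vamp1, Vamp2 and Cplx1 have most reads in 3′ UTRs (96.8%, 94.1% and 61.7%), while Syt1 (97.2%), Stx1a (87.7%), Syn1 (74.5%) and Snap25 (63.7%) have most in introns.

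Across the members, 0 of 8 RNA levels passed limma at an adjusted p of 0.05, as did 0% of the 18208 genes tested, and 0 of 8 had an unadjusted p under 0.05 by limma (1.52% of all genes) or by edgeR on the recovered reads. In 0 of 8 did the groups not overlap, beside 6.01% of all genes. The difference was above 0 for 7 genes and below 0 for 1, with a median of 0.14, beside 0.00 for all genes. Within each library set the difference had the same sign in both sets for Snap25, Stx1a and Syn1, and opposite signs for the other 5. Per kb of all annotated exons the order of mean levels was Cplx2, Snap25, Cplx1, Syn1, Vamp2, Syt1, Stx1a and Vamp1, from 8.48 to 2.55 log2 CPM per kb. These lengths join all transcripts of a gene (10.2 kb for Vamp1, 6.79 kb for Snap25), so the order depends on annotation. It was not computed for the main transcripts alone. The ranges of neighbours overlapped for Snap25 with Cplx1, Cplx1 with Syn1, Syn1 with Vamp2 and Vamp2 with Syt1, and did not for the other 3 pairs.

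In the CLIP gene sums, Vamp1 did not pass the count filter and Vamp2 was not tested. Of the other 6 genes 0 passed edgeR at an adjusted p of 0.05, as did 0% of 8177 genes, and 0 had an unadjusted p under 0.05 by edgeR (5.25% of all genes) or DESeq2. The groups overlapped in all 7 that passed the filter, beside 9.59% of genes whose groups did not. Methamphetamine replicate 1 was the highest library for Snap25, Stx1a, Syt1, Syn1, Cplx1 and Cplx2. The within-set differences were both above 0 for Syn1 (20.2 and 22.3 CPM) and Cplx2, and both below 0 for Vamp2 (-1.34 and -95.9 CPM), and they had opposite signs for the other 5. At single positions, 23 of 549 passed the filter (10 in Cplx2, 6 in Syt1, 4 in Snap25 and 3 in Vamp2). Apart from the Vamp2 ones, which were not tested, 0 of 20 passed edgeR, as did 0% of 10358 positions, with 0 at an unadjusted p under 0.05 by edgeR (3.35% of all positions) or DESeq2. The groups overlapped at all 20 of these positions, beside 7.95% of all positions tested whose groups did not.

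**Figure D5:**
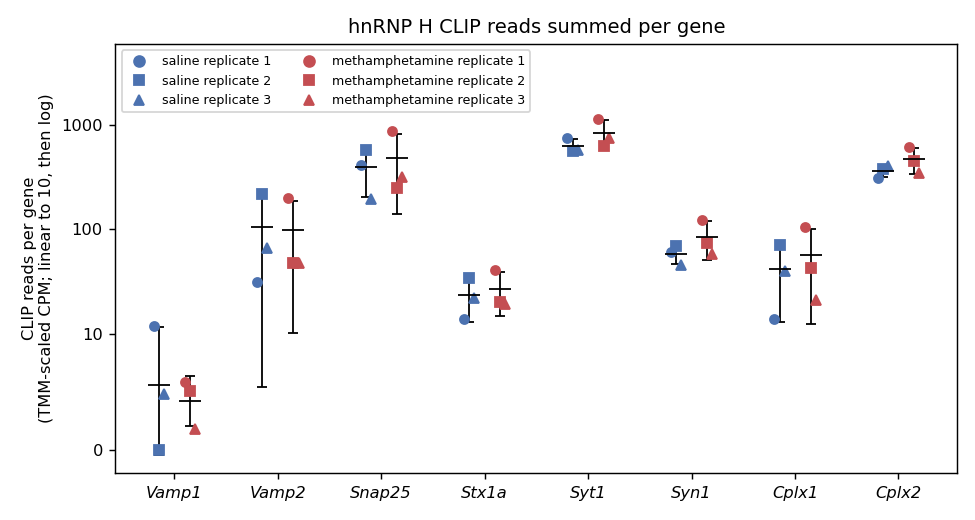
CLIP reads summed per gene (TMM-scaled CPM, axis linear up to 10 and logarithmic above) in each library, with bars for the mean and SD of 3 pools per treatment. The groups overlap for all 8 genes, and methamphetamine replicate 1 (red circle) is highest for 6 of them, among them Syt1 (1158 CPM) and Snap25 (873 CPM).

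Set against their own RNA level in the same pool, the 7 genes with enough reads lay below the median gene in CLIP reads. The 7031 genes compared had passed the CLIP count filter, so genes with little RNA enter only with enough CLIP reads. In mean RNA level Stx1a lay at the 87.5th percentile of all RNA-seq genes and the others of the 7 at 98.1 to 99.8. The part of RNA level and of intron length in the low percentiles was not tested, so they are not read as weak binding. The mean log2 difference of CLIP CPM and RNA CPM was -0.18 ± 0.43 (SD over 6 pools) for Syt1, the 43.8th percentile of 7031 genes. It was -1.72 ± 0.57 for Snap25 (17.3rd percentile), -1.92 ± 0.77 for Stx1a (14.6th) and -2.11 ± 0.53 for Cplx2 (12.5th). It was -2.37 ± 1.19 for Vamp2 (9.32nd), -2.54 ± 0.62 for Syn1 (7.75th) and -3.31 ± 0.93 for Cplx1 (3.29th). The treatments overlapped in all 7, beside 7.68% of genes whose groups did not. The changes of the 6 tested genes ran from -0.34 (Stx1a) to 0.51 (Cplx2), 0 passed limma (adjusted p = 0.997 for each, 0% of 7031 genes called) and 0 had an unadjusted p under 0.05 (3.1% of all genes). Without methamphetamine replicate 1 the change was -0.36 for Snap25, -0.05 for Syt1, -0.18 for Syn1, -0.03 for Cplx1, -0.86 for Stx1a and 0.13 for Cplx2.

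The deposited lists gave the 8 genes 47 distinct peaks, 20 in 3′ UTRs, 24 in introns, 2 in coding exons and 1 in another exon. The 3′ UTR share of all 14711 distinct listed positions was 13.1%. Of the 20 in 3′ UTRs, Cplx2 held 10 and Vamp2, chosen for a 3′ UTR position, held 6. Snap25 held 2, Syt1 1 and Cplx1 1, so the share is not read as a trait of the 8 genes. Of the members' peaks 12 were in both lists, 54.5% of their saline peaks and 32.4% of their methamphetamine peaks, where all listed positions shared 49.6% and 47.8%. The position with the most reads was in neither list for Vamp1, Vamp2, Snap25, Syt1 and Syn1. Of the 18 listed 3′ UTR peaks with sequence, 12 (66.7%) held GGG and 4 (22.2%) held GGGG on the transcript strand. Among all 1804 listed 3′ UTR peaks with sequence 76.5% held GGG and 44.6% GGGG, and 63.6% and 30.1% held them on the opposite strand. GGGG matches are also GGG matches.

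The wider release machinery was read from 6 lists with 64 genes, of which 62 were measured. By limma 0 of 62 passed in RNA-seq, with 1 at an unadjusted p under 0.05, beside 1.52% of all genes. By edgeR on recovered reads 1 was also under 0.05, beside 109 of all 13299 genes tested. The groups did not overlap in 2 of 62, Cplx3 and Stx2, beside 6.01% of all genes. Both were higher after methamphetamine, as were 2.44% of all genes. Differences were above 0 in 41 and below 0 in 21, with a median of 0.09. Over all genes 9172 were above and 9036 below 0, with a median of 0.00. The list of 14 further calcium sensors had 5 above and 9 below 0, and the 13 synapsins and vesicle proteins had 11 above and 2 below. Of these 13, Syp, Syngr1, Sv2a and Rph3a were above 0 within both library sets. Syn2, Sv2b, Sv2c, Rab3b and Rab3c were below 0 within both, and the rest had opposite signs. Cplx3, a complexin of ribbon and some cortical synapses, measured 3.36, 3.85 and 2.77 log2 CPM after saline and 4.93, 4.05 and 4.59 after methamphetamine. All 3 methamphetamine libraries were above the saline ones, by 1.19 ± 0.33 (limma unadjusted p = 0.00585, adjusted p = 1.00), and by 0.99 within set A and 0.90 within set B. The next smallest p-values belonged to Syt13 (0.49 ± 0.29) and Syt9 (-0.42 ± 0.26), both with overlapping groups and limma adjusted p = 1.00.

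In CLIP, 50 genes of these lists were tested and 0 passed edgeR. An unadjusted p under 0.05 was found in 5 of the 50, a larger share than the 5.25% of all genes. The groups did not overlap for Napb, Dnajc5, Rims3, Rimbp2, Bsn and Syn2, all higher after methamphetamine. They also did not overlap for Napa, Ppfia2, Syt13 and Rab3a, all lower. Over all genes tested 9.59% had groups that did not overlap. Whether the lists differ from all genes was not tested. The counts were 0 and 4 by DESeq2, and 0 and 3 with the library set as a covariate. Changes were above 0 in 30 and below 0 in 20, with a median of 0.16, beside 0.04 for all genes tested. The active zone genes held the most reads: Erc2 14151, Unc13a 4572 and Rims1 3890, followed by the synaptotagmin Syt11 with 3182 and the vesicle SNARE Vamp4 with 2716. Their edgeR adjusted p-values ran from 0.883 to 0.928. Unc13a, the priming factor Munc13-1, had 17 saline and 19 methamphetamine peaks in the lists, and Syt11 and Vamp4 had 0.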

How the data were processed

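The RNA-seq table deposited for 6 libraries gives log2 CPM, which the labels describe as voom values. Whole reads could be recovered for 100% of values (within 0.02 of a whole number) and edgeR was run on them as an alternative. CLIP values were counts per 100 nt position, per the file headers. Each of 147438 distinct positions among 172271 lines was used once. The authors' peak lists, 1 per treatment, gave a signal score of unstated scale and p-values and q-values of an unstated test, all q below 0.05, per the file headers. Because each list is 1 per treatment, pools cannot be compared within it. The submitters' processing notes name Trimmomatic, UMI-tools, STAR, bedtools, Subread, featureCounts, limma, edgeR and mm10, without roles. The peak caller and whether counting used strand are not given in the sources used here, so values of genes that overlap others are uncertain: Vamp1 with Tapbpl and Cd27, Syt1 with Gm5136, Syn1 with Timp1 and Snap25 with Gm14053. Whether duplicate reads were removed before counting is not stated either, so the Wilson intervals cover counting error only. Neighbouring positions may hold the same read, so sums can count it more than once.

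RNA-seq was tested with limma 3.58.1 (eBayes with a variance trend) on all 18208 genes. For CLIP counts, by position and summed per gene, the quasi-likelihood test of edgeR 4.0.16 was used after filterByExpr and TMM scaling (R 4.3.3; DESeq2 1.42.0 as an alternative). Benjamini-Hochberg adjustment ran over all features, with a threshold of 0.05. The CPM of positions and of gene sums use separate TMM factors. CLIP relative to RNA used limma on log2 CLIP CPM (offset 0.5 reads) minus the pool's RNA log2 CPM. Regions and sequences came from GENCODE M21 (GRCm38). The region of a count position was that of its midpoint in any transcript of the gene. Where transcripts differed, 3′ UTR was taken first, then 5′ UTR, coding exon, other exon and intron. Intron sequences, proteins and the merged peak file were not used here.

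Named were all 8 genes, their listed peaks and top position (that of Vamp1 is not reported here), 3 pathway genes by smallest RNA-seq p, 5 by CLIP reads and 5 by likeness to Vamp2. Stx2, named beside Cplx3, and the 2 Cplx2 positions with the largest changes were chosen after their values were seen. So were the pathway genes named for CLIP groups that did not overlap. The members, pathway lists, marker lists and library sets were chosen with earlier results of these data known.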

Additional observations from a re-analysis of the deposited data

How the results depend on the processing

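No gene or position passed the adjusted threshold in any alternative for RNA-seq, gene sums or CLIP relative to RNA: the variance trend, offset, low-value filter, DESeq2, TMM, library set, positions counted and each library left out were varied. CLIP positions gave 414 calls without the count filter, which tests 140449 positions, and 0 of them lay in the members other than Vamp2, which was not tested, while 4 lay among the 1682 positions of the wider pathway lists (smallest edgeR adjusted p = 5.02e-07). The replicate block used numbers that did not pair the pools (correlations of deviations -0.346, -0.821 and -0.489 in RNA-seq). It gave 0 calls in all 4 comparisons, and the paired values of the members kept their signs. In the gene sums, 1 of 50 pathway genes had an unadjusted p under 0.05 by edgeR with the block (5 without it). The share of all genes with the block is not given here, so nothing is read from that count. Of 298 member values under alternatives, 257 kept their direction and side of the threshold, 40 changed sign and 1 moved, all of them uncalled. With the library set as a covariate, RNA-seq changes became -0.0171 for Vamp2 and -0.0673 for Cplx1, gene sums -0.11 for Snap25 and -0.00389 for Stx1a, the Snap25 top position -0.26 and its CLIP relative to RNA -0.17. Vamp2 RNA was -0.012 by edgeR on recovered reads. Without the count filter the top positions were -0.13 for Snap25 and -0.0738 for Syt1. Listed positions alone gave gene sums of 1.14 for Vamp2 and -0.71 for Syt1, and an offset of 2 reads gave Vamp2 0.00259 relative to RNA.

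With each library left out, RNA-seq changes ran from -0.11 to 1.11 for Vamp1, -0.0665 to 0.0494 for Vamp2, -0.0302 to 0.23 for Snap25, -0.0639 to 0.36 for Syt1, -0.15 to 0.18 for Cplx1 and -0.31 to 0.00382 for Cplx2. Gene sums ran from -1.11 to 0.94 for Vamp2, -0.46 to 0.60 for Snap25, -0.18 to 0.51 for Stx1a -0.31 to 0.99 for Cplx1, 0.14 to 0.58 for Syt1 and 0.14 to 0.55 for Cplx2. Top positions ran from -1.34 to 1.40 for Snap25 and -3.87 to -2.31 for Vamp2. CLIP relative to RNA ran from -0.74 to 0.71 for Vamp2, -0.36 to 0.32 for Snap25, -0.86 to 0.0911 for Stx1a, -0.0483 to 0.52 for Syt1, -0.18 to 0.71 for Syn1, -0.23 to 0.87 for Cplx1 and 0.13 to 0.73 for Cplx2. The share of the Vamp2-202 position differed by -33.8 percentage points, by -36.4 with 3′ UTR reads alone as the denominator, and by -36.1 to -31.0 with each library left out, alternatives chosen after seeing the data. Like the range of its log2 change, these values use the counts that chose the position, so their steadiness is not read as support. The cause of the changes in this section was not tested. Depth limits Vamp1, Stx1a and Cplx1 most, with 31 to 253 CLIP reads in 6 libraries.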
